A study of Mus musculus with 8 samples.

Results

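The sarcomeric myosin chains examined here were 8 genes, taken by symbol from the 12896 genes of the count table: the heavy chains Myh1, Myh2, Myh4 and Myh7 and the light chains Mylpf, Myl1, Myl2 and Myl3. All 8 were found and all 8 passed the minimum of 40 reads summed over the 8 libraries, as did 12883 genes in all. RNA came from the quadriceps of male CD2F1 mice that were 8 weeks old when treated, with no tumour and no genetic change named in the labels. The 4 Folfiri-treated mice received 5-FU at 30 mg/kg (5-fluorouracil, an antimetabolite), leucovorin at 90 mg/kg and CPT-11 at 24 mg/kg (irinotecan, a topoisomerase inhibitor). The drugs were given intraperitoneally, 2 times a week for up to 5 weeks, and the 4 Vehicle mice received the vehicle alone. Each library came from 1 piece of whole muscle, which holds fibres of several types as well as vessels, fat and connective tissue.

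Myosin is the motor of the thick filament. Each molecule joins a pair of heavy chains, which split ATP and pull on actin, with a pair of essential and a pair of regulatory light chains that stiffen and tune the lever arm. Muscle fibres are typed by the heavy chain they use: Myh7 in slow type I fibres, Myh2 in type IIA, Myh1 in type IIX and Myh4 in type IIB, the fastest. Mylpf and Myl1 are the regulatory and essential light chains of fast fibres, and Myl2 and Myl3 are those of slow fibres and of the cardiac ventricle. Limb muscles of the mouse are made mostly of fast fibres, and the quadriceps holds a small deep region that is richer in oxidative fibres.

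The 3 fast heavy chain genes stood side by side on mouse chromosome 11 (mm9, forward strand): Myh2 at chr11:66984529-67011019, Myh1 at chr11:67013616-67038077 and Myh4 at chr11:67051314-67073949. The gap was 2596 bases between Myh2 and Myh1 and 13236 bases between Myh1 and Myh4. Myh7 lay at chr14:55589525-55613386 on the reverse strand, 4080 bases from the cardiac heavy chain Myh6. The light chain genes were spread over 4 other chromosomes: Mylpf at chr7:134355122-134357801, Myl1 at chr1:66970870-66991630 on the reverse strand, Myl2 at chr5:122550989-122556863 and Myl3 at chr9:110666185-110672298.

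Because the reads were 75 bases long, how far the heavy chains can be told apart depends on their letters. Over the aligned coding sequence of the GENCODE M1 annotation, Myh2 and Myh1 were 91.1% identical, Myh1 and Myh4 90.2%, and Myh2 and Myh4 88.2%. The stretch of 75 coding bases within 1 exon that differed most held 28 positions at which the 3 genes were not all alike, shown here in capitals with the shared bases in lower case. It lay in exon 29 of 40 of Myh2 (chr11:67004850-67004924) and of Myh1 (chr11:67030966-67031040), and in exon 27 of 38 of Myh4 (chr11:67067960-67068034), all on the forward strand.
Myh2: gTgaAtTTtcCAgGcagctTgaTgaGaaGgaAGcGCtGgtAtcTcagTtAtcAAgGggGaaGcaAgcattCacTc
Myh1: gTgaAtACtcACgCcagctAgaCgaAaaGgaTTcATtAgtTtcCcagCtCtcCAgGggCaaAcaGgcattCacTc
Myh4: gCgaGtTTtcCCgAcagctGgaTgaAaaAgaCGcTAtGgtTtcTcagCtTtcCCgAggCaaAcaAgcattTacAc

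At the other extreme, 140 consecutive coding bases were the same in all 3 genes, at coding bases 1549 to 1688 of each. A read of 75 bases that falls wholly inside this run cannot be given to 1 gene by its letters. The run crosses from exon 15 to exon 16 of Myh2 (between chr11:66994409-66994637) and of Myh1 (chr11:67021054-67022455) and from exon 13 to exon 14 of Myh4 (chr11:67060005-67062048), with the intron left out.
Myh2, Myh1 and Myh4: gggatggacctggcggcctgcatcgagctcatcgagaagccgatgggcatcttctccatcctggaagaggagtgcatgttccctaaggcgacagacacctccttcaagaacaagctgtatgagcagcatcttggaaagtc

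Of all 75-base words in its transcript, Myh1 shared 16.6% exactly with another heavy chain gene, Myh2 16.3%, Myh4 9.68% and Myh7 15.3%, the last with Myh6 alone. The 4 light chain genes shared 0 words exactly with another gene. With up to 2 mismatches, counted for the heavy chains alone, the shares were 44.3%, 40.2%, 30.7% and 37.6%. How the authors' mapping treated reads with several matches is not given in the sources used here, so the counts of the 4 heavy chains are uncertain. These shares do not give the size of the error, which also depends on the level of the partner gene. In Vehicle 1, Myh4 held 965260 reads, Myh1 43242 and Myh2 9760. Reads of Myh4 given to Myh1 or Myh2 would thus weigh more on those genes than on Myh4.

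The starts of the genes are shown because neighbours on chromosome 11 differed widely in level and because the slow light chains Myl2 and Myl3 moved together across libraries. Each window runs 5′ to 3′ from 150 bases before the start given in the count table, on the gene's strand, and ends before the earliest annotated start. The letters were read from the mm9 genome. Motifs searched were the E-box CANNTG, the MCAT element CATTCC, the CArG box, the MEF2 site (these on both strands) and TATAAA on the gene's strand, and whole matches are in capitals. Windows were chr11:66984379-66984528 for Myh2, chr11:67051164-67051313 for Myh4, chr7:134354972-134355121 for Mylpf, chr5:122550839-122550959 for Myl2 and chr9:110666035-110666149 for Myl3, all on the forward strand.
Myh2: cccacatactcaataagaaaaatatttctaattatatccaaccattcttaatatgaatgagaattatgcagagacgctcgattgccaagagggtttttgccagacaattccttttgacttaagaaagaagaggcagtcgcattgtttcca
Myh4: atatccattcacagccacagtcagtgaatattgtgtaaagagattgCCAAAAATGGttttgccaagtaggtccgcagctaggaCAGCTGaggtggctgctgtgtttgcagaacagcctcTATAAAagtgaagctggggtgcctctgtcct
Mylpf: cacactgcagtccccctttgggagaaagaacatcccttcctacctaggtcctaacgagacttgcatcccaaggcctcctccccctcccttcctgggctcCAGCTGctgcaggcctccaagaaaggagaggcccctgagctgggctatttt
Myl2: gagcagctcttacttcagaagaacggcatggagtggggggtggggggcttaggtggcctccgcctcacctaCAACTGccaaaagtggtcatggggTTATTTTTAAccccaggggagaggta
Myl3: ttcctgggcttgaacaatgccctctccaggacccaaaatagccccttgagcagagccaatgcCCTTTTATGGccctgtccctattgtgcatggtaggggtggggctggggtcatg

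The printed Myh4 window held a CArG box, an E-box and TATAAA at bases -31 to -26, whereas the Myh2 window held 0 matches to any of the 5 motifs. Mylpf held 1 E-box in its window, Myl2 an E-box and a MEF2 site, and Myl3 a CArG box, and no match overlapped another. Over the 250 bases before the start, Myh4 had 2 E-boxes, 1 MCAT element, 1 CArG box, 1 MEF2 site and 2 TATAAA, and Myh2 again had 0 of each. Windows of Myh1, Myh7 and Myl1 are not printed, because an annotated start lies further upstream. Over the same 250 bases Myh1 had 1 MCAT element, 1 MEF2 site and 1 TATAAA, Myh7 2 E-boxes, and Myl1 1 E-box and 1 MCAT element. Mylpf had 1 E-box only. Whether these motifs go with level was not tested. Among the 12873 gene starts read in the same way, 56.7% held an E-box, 10.3% CATTCC, 1.14% a CArG box, 1.87% a MEF2 site and 4.18% TATAAA. A match is a description of the letters and not evidence of a bound factor.

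The libraries held 8505985 to 21056818 reads, and the 8 myosin genes took between 5.02% (Folfiri 1) and 9.41% (Folfiri 4) of them. Markers of skeletal muscle were read in every library, 12 of 12, with a summed level of 118920 to 192070 CPM in Vehicle and 110310 to 169230 in Folfiri (CPM being reads scaled by TMM to a common library size). Heart muscle markers (6 of 11 tested) summed to 19.3 to 51.2 CPM in Vehicle and 8.76 to 34.7 in Folfiri. Of the other cell types, adipocyte markers (13 of 13 tested) reached 1953 CPM in Vehicle 2, against 212 to 761 in the other Vehicle and 187 to 558 in the Folfiri libraries. Hepatocyte markers (10 of 14) summed to 0.482 to 10.3 CPM in Vehicle and 7.43 to 258 in Folfiri, highest in Folfiri 1, with 6, 8 and 6 of the 10 at 0 reads in Vehicle 1, 3 and 4 and 0 of the 10 at 0 elsewhere. Macrophage markers (9 of 9) ran from 70.3 to 118 CPM in Vehicle and from 128 to 174 in Folfiri, and tendon markers (7 of 7) from 118 to 395 and from 252 to 753. The smooth muscle sum (6 of 7) was mostly Des, an intermediate filament gene of skeletal muscle too. Without Des it was 171 to 238 CPM in Vehicle and 100.1 to 211 in Folfiri. Its genes went both ways. Log2 fold changes were -1.17 for Myh11, -0.90 for Tagln and -0.71 for Acta2, each lowest in Folfiri 1, but 0.34 for Smtn and 0.39 for Lmod1. Smooth muscle, endothelial (8 of 8), erythroid (4 of 7) and satellite cell (6 of 6) sums overlapped between the groups. The part of these cell types in the myosin values was not tested.

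Myosin transcripts stood among the most abundant of the muscle. By mean CPM Myh4 had rank 1 of all tested genes, Mylpf rank 9, Myh1 rank 27, Myl1 rank 29 and Myh2 rank 73, whereas Myh7, Myl2 and Myl3 had ranks 1265, 1915 and 2019. Genes of different length were compared as CPM per kilobase of the gene model. On that scale Mylpf was highest in both groups (mean 11646 ± 2928 in Vehicle and 18917 ± 5059 in Folfiri, SD, n = 4). Myh4 came next (9839 ± 3028 and 7050 ± 3952), then Myl1 (2800 ± 1050 and 3407 ± 1373) and Myh1 (743 ± 435 and 484 ± 337). Myh2, Myl2 and Myl3 followed in that order of means, and Myh7 was lowest (22.7 ± 24.6 and 11.5 ± 9.04). By library, Myl2 lay above Myl3 in 4 Folfiri libraries but in only 1 Vehicle library, Vehicle 2. In Vehicle, the ranges of Myh4 and Myl1 and those of Myl1 and Myh1 did not meet, while those of every other pair of neighbours overlapped. In Folfiri, Mylpf lay wholly above Myh4 and Myl1 wholly above Myh1, and the other neighbours overlapped.

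**Figure D1:**
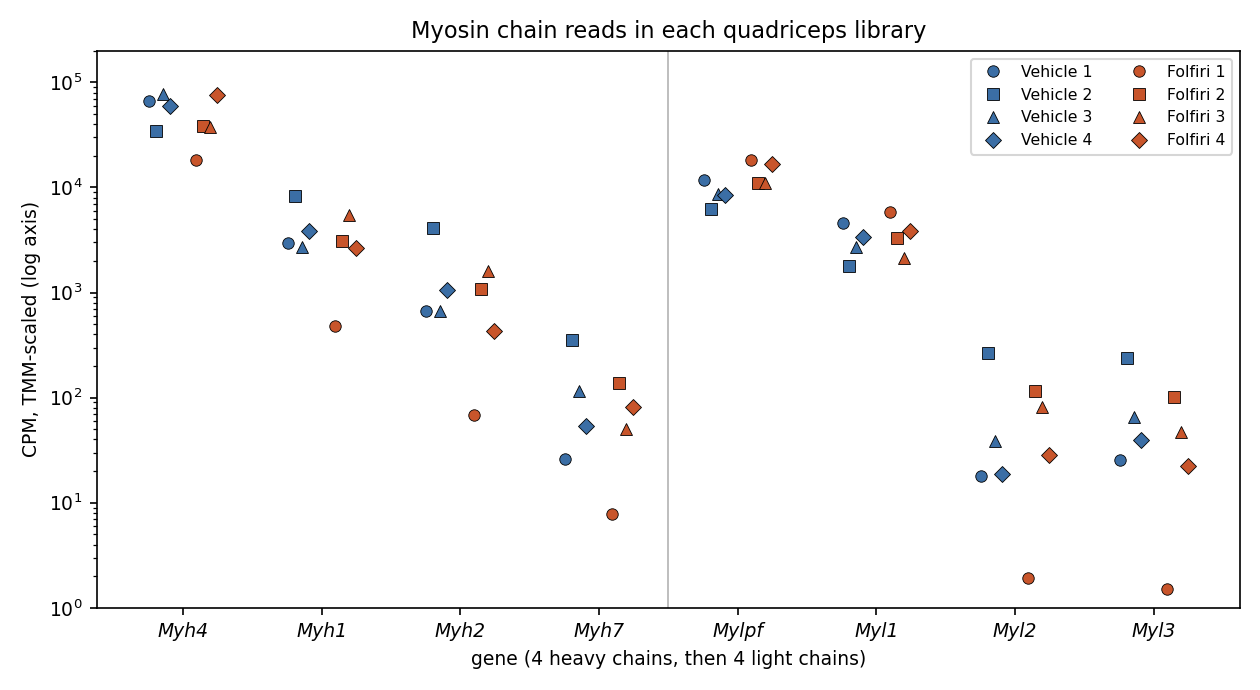
CPM (TMM-scaled, log axis) of the 8 myosin chain genes in each library, Vehicle in blue and Folfiri in orange, with 1 marker shape per replicate number, a number that names a mouse and pairs none. Folfiri 1 sits lowest for all 4 heavy chains and for Myl2 and Myl3 and highest for Mylpf and Myl1, and the groups overlap for every gene.

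The comparison of Folfiri with Vehicle asks whether the drug combination altered the myosin isoforms. By the quasi-likelihood test of edgeR 0 of the 8 myosin genes were higher and 0 were lower at an adjusted p under 0.05, where 0.00776% of all tested genes were higher (1 gene) and 0% lower. The count was also 0 of 8 in each direction by 4 other tests. Of all tested genes, the exact test of edgeR called 0.505% higher and 0.163% lower, its likelihood ratio test 0.59% and 0.194%, DESeq2 0.404% and 0.194%, and limma voom 0.0155% and 0.00776%. At an unadjusted p under 0.05, 1 of the 8 was higher (Mylpf) and 0 were lower, against 5.48% and 4.02% of all tested genes. A negative log2 fold change was found for 6 of the 8 genes and a positive one for 2, against 48.6% and 51.4% of all genes, and the median over the 8 was -0.60 against 0.01 over all genes. Without Vehicle 2 the count of negative values was 4 and the median 0.04, and without Vehicle 2 and Folfiri 1 the count was 2 and the median 0.38. The groups overlapped for all 8, while 2.87% of tested genes had every Folfiri library above every Vehicle library and 2.66% every one below. In whole muscle, fewer fibres of a type and less RNA per fibre cannot be told apart.

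Myh4, the IIB heavy chain, had rank 1 by mean CPM but rank 9 by CPM per kilobase. It measured 65956, 34148, 77327 and 60156 CPM in Vehicle 1 to 4. It measured 18385, 38847, 37525 and 75491 CPM in Folfiri 1 to 4. Of the Folfiri libraries 3 lay below 3 of the Vehicle libraries, but Folfiri 4 was nearly as high as the highest Vehicle library and Vehicle 2 was lower than 3 Folfiri libraries. The log2 fold change was -0.48 (SE 0.42, 95% interval -1.40 to 0.44, adjusted p = 0.733).

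Myh1, the IIX heavy chain, measured 2955, 8337, 2741 and 3863 CPM in Vehicle 1 to 4 and 477, 3083, 5424 and 2664 CPM in Folfiri 1 to 4. Vehicle 2 was the highest and Folfiri 1 the lowest library, and the other 6 ran from 2664 to 5424 CPM with the groups intermixed. Its log2 fold change was -0.62 (SE 0.56, adjusted p = 0.743).

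Myh2, the IIA heavy chain of fast oxidative fibres, measured 667, 4091, 663 and 1068 CPM in Vehicle and 68.6, 1079, 1596 and 429 CPM in Folfiri. The same libraries stood at the ends: Vehicle 2 exceeded Folfiri 1 by 59.7-fold. Folfiri over Vehicle came to -1.03 on the log2 scale (SE 0.78, adjusted p = 0.689).

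Myh7, the slow heavy chain, measured 26.1, 354, 117 and 54.1 CPM in Vehicle and 7.90, 138, 50.6 and 81.3 CPM in Folfiri. Vehicle 2 was again highest and Folfiri 1 lowest, with the rest intermixed. On the log2 scale the difference was -0.98 (SE 0.78, adjusted p = 0.705).

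Mylpf, the regulatory light chain of fast fibres, which binds to the lever arm and is the target of myosin light chain kinase, measured 11675, 6295, 8730 and 8471 CPM in Vehicle. In Folfiri it measured 18231, 11101, 10918 and 16877 CPM. Folfiri 1 and 4 lay above every Vehicle library and Folfiri 2 and 3 lay below Vehicle 1 only. The log2 fold change was 0.70 (SE 0.29, 95% interval 0.08 to 1.32), with an unadjusted p of 0.0306 and an adjusted p of 0.492 by the quasi-likelihood test, so the difference did not pass. With the trend of each library on gene length removed it was 0.45 (unadjusted p = 0.125).

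Myl1, the essential light chain of fast fibres, measured 4549, 1787, 2695 and 3400 CPM in Vehicle and 5811, 3328, 2156 and 3831 CPM in Folfiri. Here Folfiri 1 was the highest library and Vehicle 2 the lowest, the opposite of their places for Myh7, Myl2 and Myl3. Folfiri over Vehicle came to 0.28 on the log2 scale (SE 0.34, adjusted p = 0.807).

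Myl2, the slow regulatory light chain, measured 18.04, 266, 38.3 and 18.97 CPM in Vehicle and 1.94, 117, 82.0 and 28.6 CPM in Folfiri. Its highest library, Vehicle 2, was 137-fold above its lowest, Folfiri 1, which held 27 reads (95% Poisson interval 17.8 to 39.3, counting error only). The log2 fold change was -0.57 (SE 0.98, adjusted p = 0.871). Its sign rested on Vehicle 2: without that library the value was 1.21 (adjusted p = 0.705).

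Myl3, the slow essential light chain, measured 25.6, 240, 65.5 and 39.7 CPM in Vehicle and 1.51, 100.5, 47.3 and 22.5 CPM in Folfiri. Folfiri 1 held 21 reads (interval 13 to 32.1), and its level was 159-fold below that of Vehicle 2. On the log2 scale the difference was -1.10 (SE 0.88, adjusted p = 0.705).

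**Figure D2:**
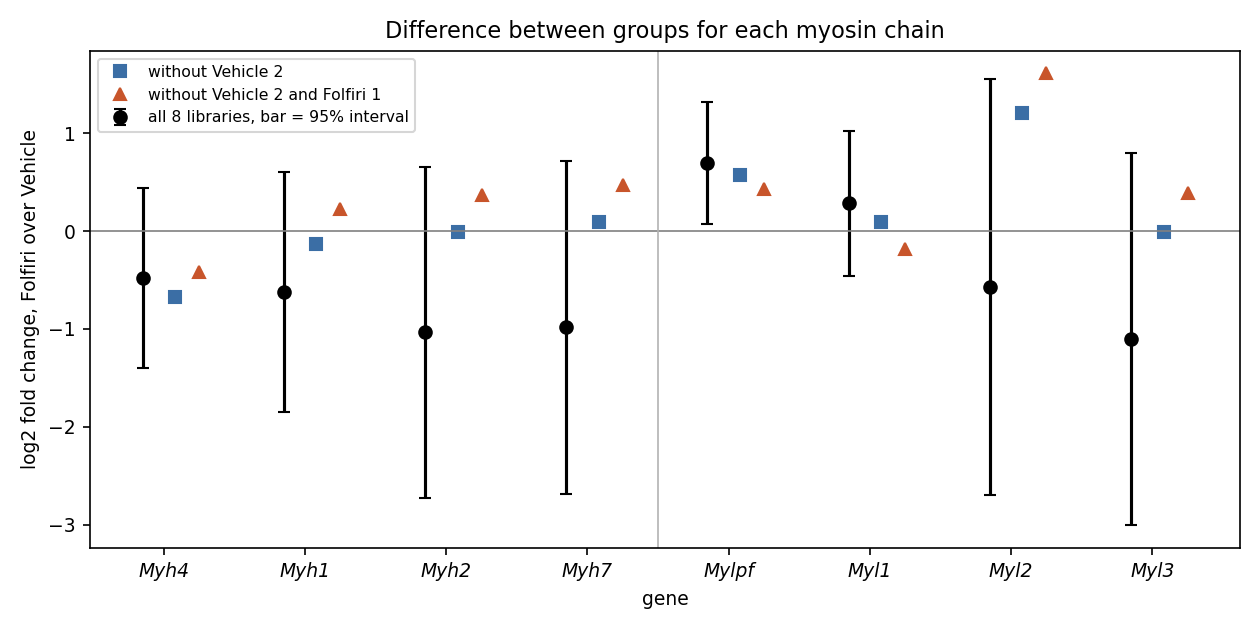
Log2 fold change of Folfiri over Vehicle for each gene from all 8 libraries (black, bar = 95% interval), without Vehicle 2 (blue) and without Vehicle 2 and Folfiri 1 (orange). With all libraries 7 of the 8 intervals include 0, and without both libraries the values of Myh1, Myh2, Myh7, Myl2 and Myl3 lie above 0.

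The negative values of Myh1, Myh2, Myh7, Myl2 and Myl3 rested mostly on Vehicle 2 and in part on Folfiri 1. Without Vehicle 2 the log2 fold change was -0.13 for Myh1, -0.01 for Myh2, 0.09 for Myh7, 1.21 for Myl2 and -0.01 for Myl3. Without Folfiri 1 alone these 5 were smaller in size but all still negative, at -0.27, -0.65, -0.61, -0.17 and -0.70. Without Vehicle 2 and Folfiri 1 it was 0.23 for Myh1, 0.37 for Myh2, 0.47 for Myh7, 0.39 for Myl3 and 1.61 for Myl2. Both libraries were left out for being the extremes of these same genes, so these values are a description. Myh4 kept a value of -0.42 and Mylpf of 0.44 in those 6 libraries.

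The libraries differed from each other in Myh1, Myh2, Myh7, Myl2 and Myl3 far more than in most genes. The range of log2 CPM over the 8 libraries was 7.18 for Myl3, 7.0 for Myl2, 5.90 for Myh2, 5.46 for Myh7 and 4.13 for Myh1, against a median of 0.99 over all tested genes. Those of Myh4, Myl1 and Mylpf were 2.07, 1.70 and 1.53. Relative to the mean of the 8 libraries, Vehicle 2 stood 1.5 to 2.95 higher on the log2 scale for Myh1, Myh2, Myh7, Myl2 and Myl3. Its deviation was -0.80 for Mylpf and -0.85 for Myl1 on the same scale. In Folfiri 1 the sign was reversed for each of these 7 genes, from -4.45 for Myl3 to 0.85 for Myl1.

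**Figure D3:**
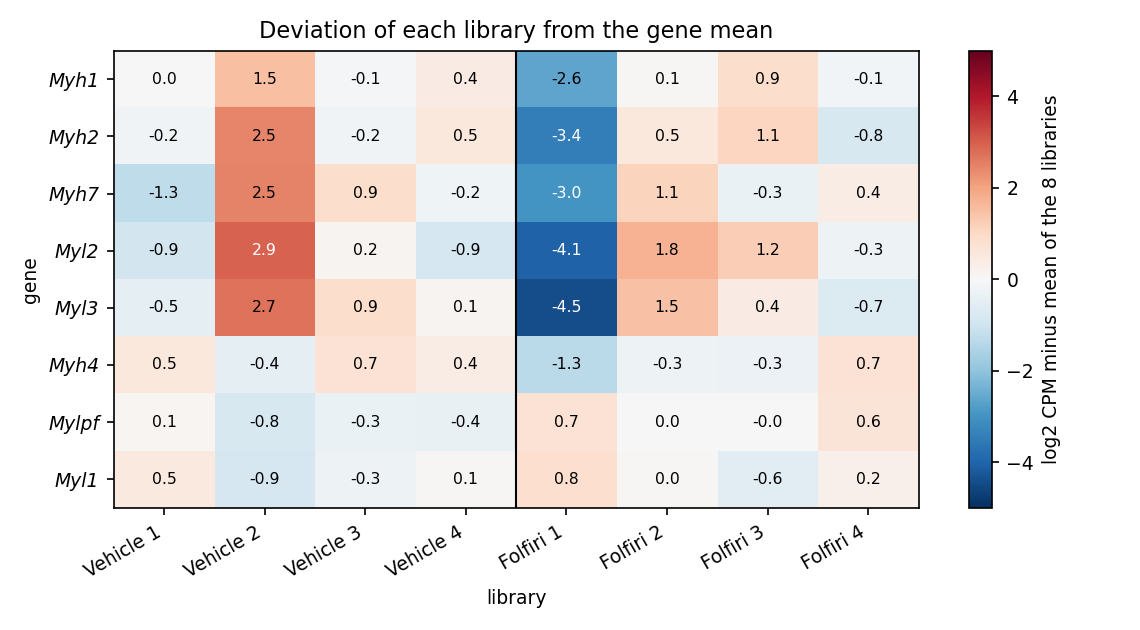
Deviation of log2 CPM from the mean of the 8 libraries, with genes in rows and libraries in columns, red above and blue below the mean. Vehicle 2 is red and Folfiri 1 is blue for Myh1, Myh2, Myh7, Myl2 and Myl3, and both have the opposite colour for Mylpf and Myl1.

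Across the 8 libraries Myh1, Myh2, Myh7, Myl2 and Myl3 varied together. Pearson's r of log2 CPM was 0.981 for Myh1 with Myh2 (rho 0.976), 0.954 for Myl2 with Myl3 (rho 0.905) and 0.934 for Myh7 with Myl3 (rho 0.833). Mylpf and Myl1 went together (r = 0.788, rho 0.810), and Myh2 ran against Mylpf (r = -0.844, rho -0.738). For Myh4 with the other 7, r ran from -0.21 to 0.42. These are descriptions over 8 libraries that share their depth and scaling, and 2 libraries carried much of them. Without Vehicle 2 and Folfiri 1, r was 0.872 for Myh1 with Myh2 and 0.759 for Myl2 with Myl3, but 0.693 for Myh7 with Myl3, 0.383 for Mylpf with Myl1 and -0.54 for Myh2 with Mylpf. Myh1 with Myh7 went from r = 0.801 (rho 0.452) over the 8 libraries to -0.32 in those 6. Likewise r went from 0.827 to -0.07 for Myh2 with Myh7, from 0.919 to 0.12 for Myh1 with Myl3 and from 0.895 to 0.32 for Myh1 with Myl2. The remaining pairs among Myh1, Myh2, Myh7, Myl2 and Myl3 had r of 0.54 to 0.59 there. In those 6 libraries Myh4 ran against Myh2 (r = -0.86), Myl2 (r = -0.79), Myh1 (r = -0.70) and Myl3 (r = -0.55).

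The makeup of the heavy chains, as shares of their reads per kilobase, was dominated by Myh4. It made up 94.8%, 72.8%, 95.6% and 92.3% of the 4 heavy chains in Vehicle 1 to 4 and 97.1%, 90.0%, 84.1% and 96.0% in Folfiri 1 to 4. Myh1 made up 3.40% to 17.8% in Vehicle and 2.53% to 12.2% in Folfiri. Myh2 and Myh7 together made up 9.40% in Vehicle 2, against 0.958% to 1.71% in the other Vehicle libraries and 0.401% to 3.66% in Folfiri. Group means overlapped within their spread for Myh4 (88.9% ± 10.8 in Vehicle and 91.8% ± 5.97 in Folfiri, SD, n = 4).

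Among the light chains, Mylpf made up 78.2% to 81.9% in Vehicle and 81.7% to 87.2% in Folfiri, so that Folfiri 2 alone lay within the Vehicle range. Myl1 made up 15.1% to 21.3% in Vehicle and 11.7% to 17.8% in Folfiri. The slow pair Myl2 and Myl3 made up 6.47% in Vehicle 2, 0.291% to 0.945% in the other Vehicle libraries, 0.0161% in Folfiri 1 and 0.271% to 1.65% in the other Folfiri libraries. No test was made on shares over these genes.

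**Figure D4:**
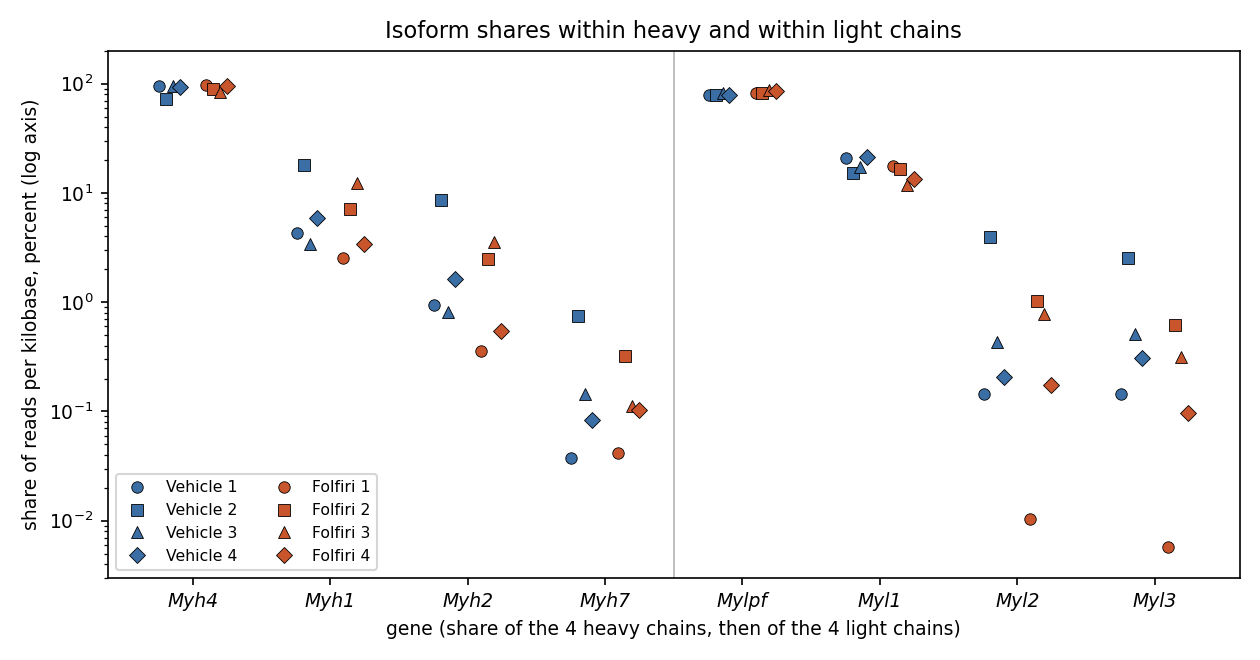
Share of reads per kilobase (percent, log axis) of each heavy chain among the 4 heavy chains and of each light chain among the 4 light chains, by library (Vehicle blue, Folfiri orange). Vehicle 2 has the lowest Myh4 share (72.8%) and the highest shares of Myh1, Myh2, Myh7, Myl2 and Myl3.

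The balance of light to heavy chains, a ratio looked at after the values of the 8 genes were known and given with no test, did not overlap between the groups. Reads per kilobase of the 4 light chains over those of the 4 heavy chains came to 1.70, 1.37, 1.05 and 1.33 in Vehicle and 9.37, 2.52, 2.25 and 1.99 in Folfiri. For the fast pair alone, Mylpf over Myh4 was 1.42, 1.47, 0.903 and 1.13 in Vehicle and 7.93, 2.29, 2.33 and 1.79 in Folfiri. Folfiri 1 stood far above the other Folfiri libraries, and the mean of Mylpf over Myh4 in Folfiri was 3.58 with it and 2.13 without it. Myl3 over Myl2 was also without overlap, at 0.635 to 1.48 in Vehicle and 0.406 to 0.607 in Folfiri, by a narrow margin. Its Folfiri 1 value of 0.548 rested on 21 reads of Myl3 and 27 of Myl2. The groups overlapped for the other ratios formed: Myl1 over Mylpf, Myh1 over Myh2, Myh4 over Myh1 and Myh2 over Myh7. Among single genes 2.87% lay wholly above and 2.66% wholly below in Folfiri, and the share for ratios of other genes was not worked out.

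The light over heavy and Mylpf over Myh4 ratios set short genes (light chains of 633 to 1110 bases) against long ones (heavy chains of 6019 to 6083 bases), and the libraries differed in how short and long genes were read. The median deviation of abundant genes of 500 to 1200 bases minus that of abundant genes of 5500 to 6500 bases was -0.24 to -0.06 on the log2 scale in Vehicle. It was 0.48, -0.09, 0.25 and 0.05 in Folfiri 1 to 4. After each library's trend on length was removed, Mylpf over Myh4 was 1.41, 1.71, 0.998 and 1.34 in Vehicle and 5.76, 2.43, 1.99 and 1.75 in Folfiri. The groups then stood apart by a narrow margin, 1.71 in the highest Vehicle library and 1.75 in the lowest Folfiri library. Light over heavy chains was 1.15 to 1.70 in Vehicle and 1.92 to 6.97 in Folfiri on the same footing. Myl3 over Myl2, both short genes, was then 0.624 to 1.41 in Vehicle and 0.414 to 0.619 in Folfiri. That margin was narrow too, and its upper Folfiri value was that of Folfiri 1, with few reads of both genes.

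**Figure D5:**
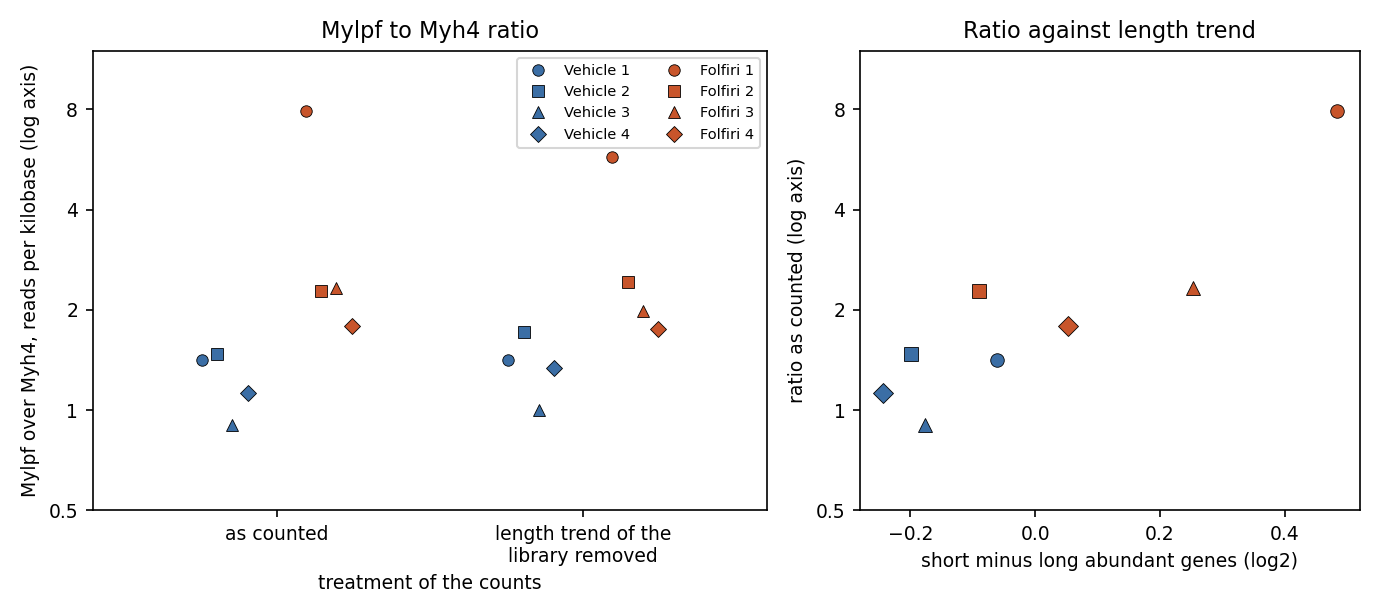
Left, Mylpf over Myh4 in reads per kilobase (log axis) for each library, as counted and with the library's trend on gene length removed. Right, the ratio as counted against the difference between short and long abundant genes (log2), where Folfiri 1 has both the highest ratio (7.93) and the highest difference (0.48).

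The genes that resembled each chain most over the 8 libraries were taken as the 5 with the highest Pearson r of log2 CPM among all tested genes. Myh2 was followed most closely by Ldhb, the heart-type lactate dehydrogenase subunit (r = 0.990), then by Esrrb, Stom, Myh1 and Actn2. Myh1 was followed by Actn2, the Z-disc protein alpha-actinin 2 (r = 0.986), Adck3, a coenzyme Q synthesis kinase (r = 0.986), Wfs1, Myh2 and Myh7b. Myh7 was followed by Atp2a2, the slow and cardiac calcium pump (r = 0.977), the slow troponins Tnnt1 (r = 0.976) and Tnnc1, Dlc1 and the slow tropomyosin Tpm3. Myl2 was followed by Myom3, an M-band protein (r = 0.979), Lnx2, Aldh2, Csrp3 and Mybpc1, the slow myosin-binding protein C. Myl3 was followed by Adk (r = 0.971), Map3k5, Cyth1, Myom3 and Plcb1.

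The fast chains had other neighbours. Myh4 was followed by Fxr1, an RNA-binding protein of muscle (r = 0.989), Slc4a1ap, the translation initiation subunit Eif3a, the RNA helicase Ddx46 and Tsr1. Its range ran over 4.21-fold, and that of Fxr1 from 292 to 576 CPM. Mylpf was followed by Smarcd3, a subunit of a chromatin remodelling complex in muscle (r = 0.969), Pdlim7, Commd1, Thpo and A930003A15Rik, and Myl1 by Tex38 (r = 0.987), Cbfb, Satb1, Golt1b and Rtn4. Of these, Tex38 and A930003A15Rik had few reads, with means of 0.863 and 1.33 CPM. These likenesses over 8 libraries are a description, and the genes were picked from all 12883 for the height of r. Without Vehicle 2 and Folfiri 1, r ran from 0.657 for Myl3 with Myom3 to 0.993 for Myh2 with Ldhb. It was then 0.704 for Myl3 with Adk and 0.783 for Myh7 with Dlc1.

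Vehicle 2 and Folfiri 1 also stood at the ends of the summed slow fibre genes outside myosin. Of these 11 genes 11 had a negative log2 fold change with a median of -0.87, and 0 of 11 passed the test in either direction, at an adjusted or an unadjusted p under 0.05. The summed level was 2704, 8151, 1729 and 2855 CPM in Vehicle and 1106, 3885, 3784 and 1471 CPM in Folfiri, so that Vehicle 2 was highest and Folfiri 1 lowest. The direction rested on Vehicle 2: without it 2 of the 11 were negative and the median was 0.29, without Folfiri 1 alone 11 were negative with a median of -0.48, and without Vehicle 2 and Folfiri 1 the count was 0 and the median 0.68. With all libraries, myoglobin (Mb), the oxygen store of oxidative fibres, had a log2 fold change of -0.50, Fhl1 of -0.63, Tpm3 of -1.05, Ankrd2 of -1.08 and Csrp3 of -1.11. Most of the summed level was Mb and Fhl1, at 3909 and 2590 CPM in Vehicle 2 and 870 and 170 CPM in Folfiri 1. Mb itself was lowest in Folfiri 4 (724 CPM), while the other slow fibre genes were each lowest in Folfiri 1. Fast fibre genes outside myosin had a median of 0.01, with 6 of 11 positive and 0 of 11 passing at either p, and a median of -0.16 without Vehicle 2. Of these Atp2a1, the fast calcium pump, had a value of -0.16, Tpm1 of -0.46, Tnnc2 of -0.37 and Tnni2 of -0.37.

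The other sarcomeric myosins were low. Of 8 tested genes of 10 listed, 8 had a negative value, with a median of -0.43 and 0 passing at either p, and without Vehicle 2 and Folfiri 1 the median was 0.09 with 3 negative. Their summed level was 136 to 204 CPM in Vehicle and 51.9 to 168 CPM in Folfiri, lowest in Folfiri 1. The neonatal chain Myh8 measured 51.6 ± 5.44 CPM in Vehicle and 34.3 ± 15.5 in Folfiri (SD, n = 4), with a log2 fold change of -0.59. Myh13, the extraocular chain, had a value of -0.43 and the cardiac chain Myh6 of -0.80. Each of these shares stretches of letters with the members described above, so part of their reads may belong to them. Myosins of non-muscle and smooth muscle cells (8 of 8 tested) had a median of -0.30, with 0 passing at the adjusted p and 2 lower at the unadjusted p. The share lower at the unadjusted p was 4.02% of all tested genes. Myh11, the smooth muscle heavy chain, measured 32.6, 53.9, 43.7 and 37.5 CPM in Vehicle and 4.95, 21.3, 22.9 and 25.2 CPM in Folfiri, without overlap. Its log2 fold change was -1.17 (SE 0.38, unadjusted p = 0.00876, adjusted p = 0.414 by the quasi-likelihood test). Every Folfiri library was below every Vehicle library for 2.66% of all tested genes. The smooth muscle genes Acta2 and Tagln, picked after their values were seen, were also lowest in Folfiri 1, at 10.3 and 6.17 CPM. Of the same list, Smtn and Lmod1 had positive log2 fold changes, 0.34 and 0.39. The part of smooth muscle cells in the value of Myh11 was not tested. Myh10, a non-muscle heavy chain, had a value of -1.07 (adjusted p = 0.460). It measured 71.6 CPM in Vehicle 2, against 22.7, 26.7 and 20.7 in Vehicle 1, 3 and 4 and 8.97 to 23.9 in Folfiri. Over the 21 alternatives its value ran from -1.29 to -0.25.

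Outside the cell type markers, the smallest p of any listed gene was that of a kinase. Mylk4, a member of the myosin light chain kinase family found in striated muscle, measured 3285, 1652, 1817 and 2125 CPM in Vehicle 1 to 4. In Folfiri 1 to 4 it measured 918, 850, 778 and 1125 CPM, so that the highest Folfiri value was below the lowest Vehicle value. The log2 fold change was -1.27 (SE 0.25, unadjusted p = 0.000247), and the adjusted p of 0.187 did not pass by the quasi-likelihood test. It did pass by edgeR's exact test (adjusted p = 0.000811), its likelihood ratio test (adjusted p = 0.000773) and DESeq2 (adjusted p = 4.4e-05). These tests called 21, 25 and 25 genes lower, and over all 21 alternatives the value ran from -1.39 to -1.02 and the adjusted p from 4.4e-05 to 0.427. Folfiri lay wholly below Vehicle for 2.66% of all tested genes.

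Mylk2, the kinase that phosphorylates the regulatory light chain of skeletal muscle, had a log2 fold change of -0.53 (unadjusted p = 0.0359, adjusted p = 0.502). The smooth muscle kinase Mylk had a value of -0.45. Among the 9 tested of 10 genes of light chain kinases, phosphatase and calmodulin, 0 passed at the adjusted p, 2 were lower at the unadjusted p (Mylk2 and Mylk4), against 4.02% of all tested genes, and the median was -0.09. Their summed level was 4507 to 7524 CPM in Vehicle and 3866 to 4469 CPM in Folfiri, without overlap. Without Mylk4 it was 2855 to 4410 and 3088 to 3358 CPM, and the groups overlapped.

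Proteins that share the thick filament and the M-band had a median of -0.34 over 9 tested genes of 11, with 7 negative and 0 passing at the adjusted p, and of -0.05 without Vehicle 2 and Folfiri 1. Titin (Ttn), which spans from the Z-disc to the M-band, had a value of -0.14 and the fast myosin-binding protein C Mybpc2 of -0.38. Mybph, a small relative of myosin-binding protein C, measured 338, 44.3, 257 and 157 CPM in Vehicle and 287, 368, 367 and 695 CPM in Folfiri. Of its Folfiri libraries 3 lay above every Vehicle library, and its log2 fold change was 1.11 (unadjusted p = 0.0379, adjusted p = 0.503).

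Genes of myosin folding and turnover had a median of -0.38 over 9 genes (-0.21 without Vehicle 2 and Folfiri 1), with 0 passing at the adjusted p and 3 lower at the unadjusted p. Of all tested genes, 4.02% were lower at the unadjusted p. Trim63 (MuRF1), a ubiquitin ligase that marks thick filament proteins for degradation, measured 366, 277, 443 and 362 CPM in Vehicle and 203, 261, 230 and 211 CPM in Folfiri, all below Vehicle. Its log2 fold change was -0.68 (SE 0.18, unadjusted p = 0.00284, adjusted p = 0.308), with an adjusted p of 0.0312 by DESeq2. Fbxo32 (atrogin-1), another muscle ubiquitin ligase, had a value of -0.62 (adjusted p = 0.460), and Hsp90aa1, a chaperone of the myosin head, of -1.08 (adjusted p = 0.480). Smyd1, a muscle methyltransferase needed for myosin assembly, had a value of -0.05.

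Regulators of fibre type (21 of 21 tested) had a median of 0.02, with 0 passing at the adjusted p, 1 higher and 4 lower at the unadjusted p. At that unadjusted p, 5.48% of all tested genes were higher and 4.02% lower. Rcan1, an inhibitor and target gene of calcineurin, had a log2 fold change of -0.76, with all Folfiri libraries below Vehicle (unadjusted p = 0.00651, adjusted p = 0.387). Such a place below Vehicle was found for 2.66% of all tested genes. Esrrg, a nuclear receptor of oxidative fibres, had a value of -1.34 (adjusted p = 0.498), and Nfatc2 of 0.62 (adjusted p = 0.434). Esrrg measured 60.1 CPM in Vehicle 2, against 20.2, 7.72 and 14.6 in Vehicle 1, 3 and 4 and 5.09 to 16.9 in Folfiri. Over the 21 alternatives the value of Esrrg ran from -1.69 to -0.29. Mef2c and Tead1, whose proteins bind the MEF2 and MCAT motifs, had values of 0.09 and -0.24.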

How the data were processed

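RNA-Seq of quadriceps muscle from 4 Vehicle and 4 Folfiri mice was analysed, grouped by the treatment in the sample titles. Per the study's methods, the authors made strand-specific SOLiD libraries from poly(A) RNA and removed low-quality, rRNA and tRNA reads. They mapped reads of 75 bases with bfast to mm9 and splice junctions, and counted them per RefSeq gene with bamutils. The deposited counts are the authors' unscaled reads per gene, and 0 columns of other samples were present. The deposited scaled values and the authors' edgeR fold changes, p-values and FDR were not used.

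Counts were fitted with edgeR 4.0.16 in R 4.3.3: TMM scaling, at least 40 reads over the 8 libraries, quasi-likelihood test, Benjamini-Hochberg adjustment over 12883 genes, called under 0.05. Fold changes are log2, and SE and 95% intervals come from the quasi-likelihood F. The common coefficient of biological variation was 0.261 and correlations between replicates ran from 0.948 to 0.978. The code was tested on simulated data. CPM uses TMM-scaled library sizes, and log2 CPM a prior count of 2. The design text gives 4 samples a group, and p-values measure only the spread between these samples.

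Named genes are the 8 chains, for each list the 3 genes with the smallest p and the 2 most abundant, and for each chain the 5 most correlated genes. The 8 chains, the lists (other myosins, thick filament, kinases, folding and turnover, fibre type regulators, slow and fast genes, cell type markers), the tests and the alternatives were chosen with earlier results of these data known. Genes listed but not in the table were not analysed here. The result of 1 listed gene is not reported here. Sequences were read from the mm9 genome with GENCODE M1 models, aligned with MAFFT 7.526. Alternatives tried were the exact and likelihood ratio tests, DESeq2 1.42.0, limma 3.58.1 voom with quality weights, the robust fit, RLE factors, library totals, TMM without the 8 genes, 2 other filters, each library left out, and a replicate block. Added after the data were seen were leaving out Vehicle 2 with Folfiri 1 and a gene length offset.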

Additional observations from a re-analysis of the deposited data

Results flagged for a closer look

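A sample far from the others of its group was found 11 times among the 40 groups of values and shares examined (Dixon's ratio above its 95% critical value for 4 samples), and each time it was Vehicle 2 within Vehicle. Chance flags about 1 in 20 such groups if the values are normally distributed. These were CPM and shares not put on a log scale, where a high value stands out more than a low one, so that rate may not hold. The same check was not made on log2 CPM. The values are also not independent, since shares of 1 library move together. Vehicle 2 stood apart in the level of Myh2 (4091 CPM) and of Myl2 (266 CPM). Among the heavy chains it stood apart in the share of Myh4 (72.8%), Myh2 (8.65%), Myh7 (0.752%) and Myh7 with Myh2 (9.40%). Among the light chains it stood apart in the share of Myl2 (3.95%), Myl3 (2.51%) and both together (6.47%), in Myl2 as a share of the regulatory light chains (4.80%) and in Myl3 as a share of the essential light chains (14.2%). The same library had the highest adipocyte sum (1953 CPM), with Ucp1, the uncoupling protein of brown fat, at 251 CPM, while Vehicle 1, 3 and 4 had 0.615, 19.2 and 1.13 CPM. The part of these cells in its myosin values was not tested.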

How the results depend on the processing

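No myosin chain passed under any of the 21 alternatives, and the lowest adjusted p was 0.188 (Mylpf, DESeq2). Myh4 and Mylpf kept their direction under all of them. Directions turned in 10 cases. Without Vehicle 2, Myh7 became 0.09 and Myl2 1.21, and without Folfiri 1 Myl1 became -0.0013. Without both libraries Myh1 became 0.23, Myh2 0.37, Myh7 0.47, Myl1 -0.19, Myl2 1.61 and Myl3 0.39, and by voom Myl2 became 0.56. The causes were not tested. Leaving out 1 library at a time gave -1.12 to -0.13 for Myh1, -1.64 to -0.01 for Myh2, -0.91 to -0.23 for Myh4, -1.56 to 0.09 for Myh7, 0.56 to 0.87 for Mylpf, -0.0013 to 0.53 for Myl1, -1.19 to 1.21 for Myl2 and -1.97 to -0.01 for Myl3. Over all genes, the calls of 1 higher and 0 lower became 65 and 21 by the exact test, 76 and 25 by the likelihood ratio test, 52 and 25 by DESeq2, 2 and 1 by voom, and 3 and 0 with library totals. With library totals the median of all genes was 0.14. Leaving out a library gave 0 to 1 higher, and leaving out Vehicle 2 with Folfiri 1 gave 0. Mylk4 passed under 3 alternatives and Trim63 under 1.

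The labels name no litter or day shared by a replicate number. Same-numbered libraries deviated together with correlations of 0.30, 0.136, 0.0557 and 0.196, and 2 of the 4 Vehicle libraries correlated best with their own number, so the numbers were not taken as pairs. With a replicate block 3 genes were higher and 0 lower, no myosin chain passed (lowest adjusted p 0.263), and Myh7 was -0.93 (unadjusted p = 0.0189), Myl3 -1.42 (0.00992) and Myh2 -1.39 (0.04995). Folfiri 1 held 21 reads of Myl3 and 27 of Myl2 at a total above those of Vehicle 2 and 3, so counting error is larger for these values.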
